A study of Mus musculus with 8 samples.

Results

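The fibrillar collagen genes described here were Col1a1, Col1a2, Col2a1, Col3a1, Col5a1, Col5a2, Col5a3, Col11a1, Col11a2 and Col27a1. They were taken by gene symbol from a table of 21895 genes, as members of a gene family, with earlier results of these data known. All 10 were found, each in 1 row, and all 10 were among the 14990 genes that passed a filter on low values (mean FPKM of at least 0.5 over all libraries) and were tested. FPKM, is a count of sequenced fragments scaled to gene length and library size.

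RNA of the whole cochlea was compared between wild-type mice (WT, 4 libraries, WT1 to WT4) and mice homozygous for a deletion of miR-29a (miR-29a-/-, here KO, 4 libraries, KO1 to KO4). Both groups were on a C57BL/6 background and came from crosses of heterozygous parents; the label describes the deletion by gene only, and whether it reaches the neighbouring miR-29b is not given in the sources used here. The series description gives an age of 21 days, whereas the study's methods place the sequencing of these genotypes at an older age, so the age cannot be settled from the sources used here. The study asked what role miR-29a plays in hearing, and sequenced cochlear RNA to look into the hearing loss of the KO mice. No treatment was given to either group. It is not stated whether a library came from 1 animal or from a pool, so the p-values measure the spread between these libraries only. The level of miR-29a itself was not analysed here.

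Fibrillar collagens are the triple-helical proteins that assemble into the banded fibrils of bone, cartilage and connective tissue. Type I (Col1a1 and Col1a2) is the main collagen of bone and of most soft connective tissue, type III (Col3a1) co-assembles with it, and type V (Col5a1, Col5a2 and Col5a3) starts its fibrils and limits their width. Type II (Col2a1) with type XI (Col11a1 and Col11a2) forms the thin fibrils of cartilage and, in the inner ear, of the tectorial membrane, while type XXVII (Col27a1) belongs to a separate branch of the family found in cartilage. The miR-29 microRNAs lower many matrix transcripts by pairing, through a shared seed at their 5′ end, with complementary sites in 3′-UTRs.

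The mature miR-29 sequences (RefSeq, GRCm38.p6) are shown because the family shares the seed, bases 2 to 8, printed in capitals. The deleted miR-29a-3p lies at chr6:31062673-31062694 on the minus strand. miR-29b-3p is made from 2 loci, at chr6:31063025-31063047 on the minus strand, close to miR-29a, and at chr1:195037091-195037113 on the plus strand. miR-29c-3p lies at chr1:195037600-195037621 on the plus strand.
mmu-miR-29a-3p: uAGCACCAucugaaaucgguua
mmu-miR-29b-3p: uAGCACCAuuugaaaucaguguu
mmu-miR-29c-3p: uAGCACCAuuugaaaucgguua

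The complement of this seed, TGGTGCT, was searched on the transcript strand in the longest annotated 3′-UTR of each gene (GENCODE M21, GRCm38). It was present in 8 of the 10 fibrillar collagen genes, with 14 matches in all. Of 14832 tested genes with an annotated 3′-UTR, 15.5% held at least 1 match. Among the 8336 genes whose 3′-UTR length lay within the range of the collagens (438 to 2498 bases) the share was 12.9%. Col5a1 held 4 matches, Col5a3 held 3 and Col11a1 held 2, whereas 2.47% of tested genes held 2 or more and 0.533% held 3 or more. Col1a2, with a 3′-UTR of 882 bases, and Col11a2, with 877 bases, held none in this window. The letters are a match of sequence and were not tested as binding sites, and no other form of site was searched.

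The matches followed by an A, the base that favours binding by the microRNA complex, numbered 7 of the 14. They are printed with the 14 bases before them and the base after them, the match in capitals, together with the single match of Col27a1, which is followed by a c. On GRCm38 the matches lie in the 3′-UTRs at chr11:94952538-94952544 (Col1a1, plus strand), chr15:97975682-97975688 (Col2a1, minus strand), chr1:45348982-45348988 (Col3a1, plus strand), chr1:45374966-45374972 (Col5a2, minus strand), chr2:28038034-28038040 and chr2:28038350-28038356 (Col5a1, plus strand), chr9:20770504-20770510 (Col5a3, minus strand) and chr4:63333920-63333926 (Col27a1, plus strand).
Col1a1: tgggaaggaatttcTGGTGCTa
Col2a1: cgtgtcctacacaaTGGTGCTa
Col3a1: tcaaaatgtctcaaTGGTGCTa
Col5a2: ttttcttttaatgaTGGTGCTa
Col5a1, upstream match: acacttgtctcttgTGGTGCTa
Col5a1, downstream match: ttgctgaatgtttgTGGTGCTa
Col5a3: tccaccaggcctttTGGTGCTa
Col27a1: cactgtgaaatcgcTGGTGCTc
Neither match of Col11a1 was followed by an A.

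**Figure D1:**
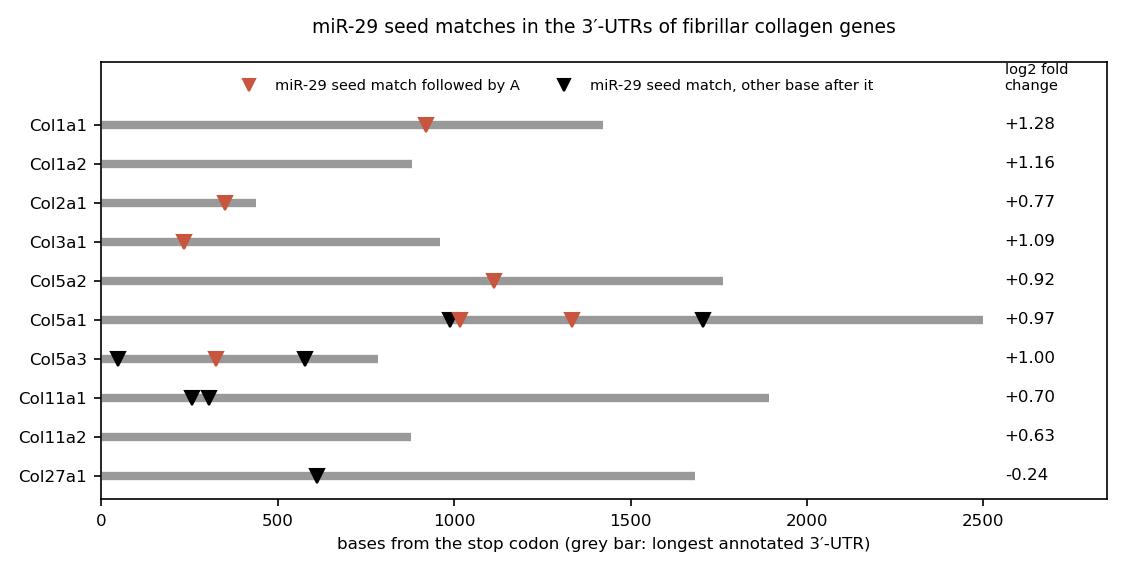
Position of each miR-29 seed match along the 3′-UTR of the 10 fibrillar collagen genes, in bases from the stop codon; bars are drawn to the length of the longest annotated 3′-UTR and marks show whether a match is followed by an A; the column at the right gives each gene's log2 fold change, KO minus WT. Col5a1 holds 4 matches in 2498 bases, and Col1a2 and Col11a2 hold none.

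Total FPKM ranged from 249221 to 288695 per library, and the number of reads behind the values is not given, so their counting error is unknown. Of the 14990 tested genes, 767 differed between KO and WT at an unadjusted p under 0.05 (limma). None of them, 0, passed after Benjamini-Hochberg adjustment, the smallest adjusted p being 0.558. The threshold for a call was the study's own, but the study used DESeq2 and fewer libraries per group. Its calls are therefore not the calls given here. Higher calls in KO took 4.61% of tested genes and lower calls 0.507%, with a median over all of them of 0.10 (log2, KO minus WT). Libraries WT1 and WT3 stood apart from WT2 and WT4: WT1 had the largest summed FPKM of 7 neutrophil genes (9387, against 51.3 in WT3 and 653 to 889 in the other two), and WT3 had the smallest sum of 10 osteoblast and osteocyte genes (52.5, against 273 to 652 in the other WT libraries). Values without WT1, or without WT1 and WT3, are given where they move a call or a fold change by a wide margin.

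Of the 10 fibrillar collagen genes, 6 were called higher in KO, 0 were called lower and 4 were not called, against the background of 4.61% and 0.507% of all tested genes. The 6 were Col1a1, Col1a2, Col3a1, Col5a1, Col5a2 and Col11a1. In each of these 6 every KO library lay above every WT library, a separation that 3.02% of tested genes showed. The median log2 fold change of the 10 was 0.94, beside 0.10 for all tested genes, and 9 of the 10 were above 0, as were 66.5% of all tested genes. None passed the adjustment over all genes. In bulk tissue, a change in the number of cells of a type and a change in RNA per cell cannot be told apart.

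**Figure D2:**
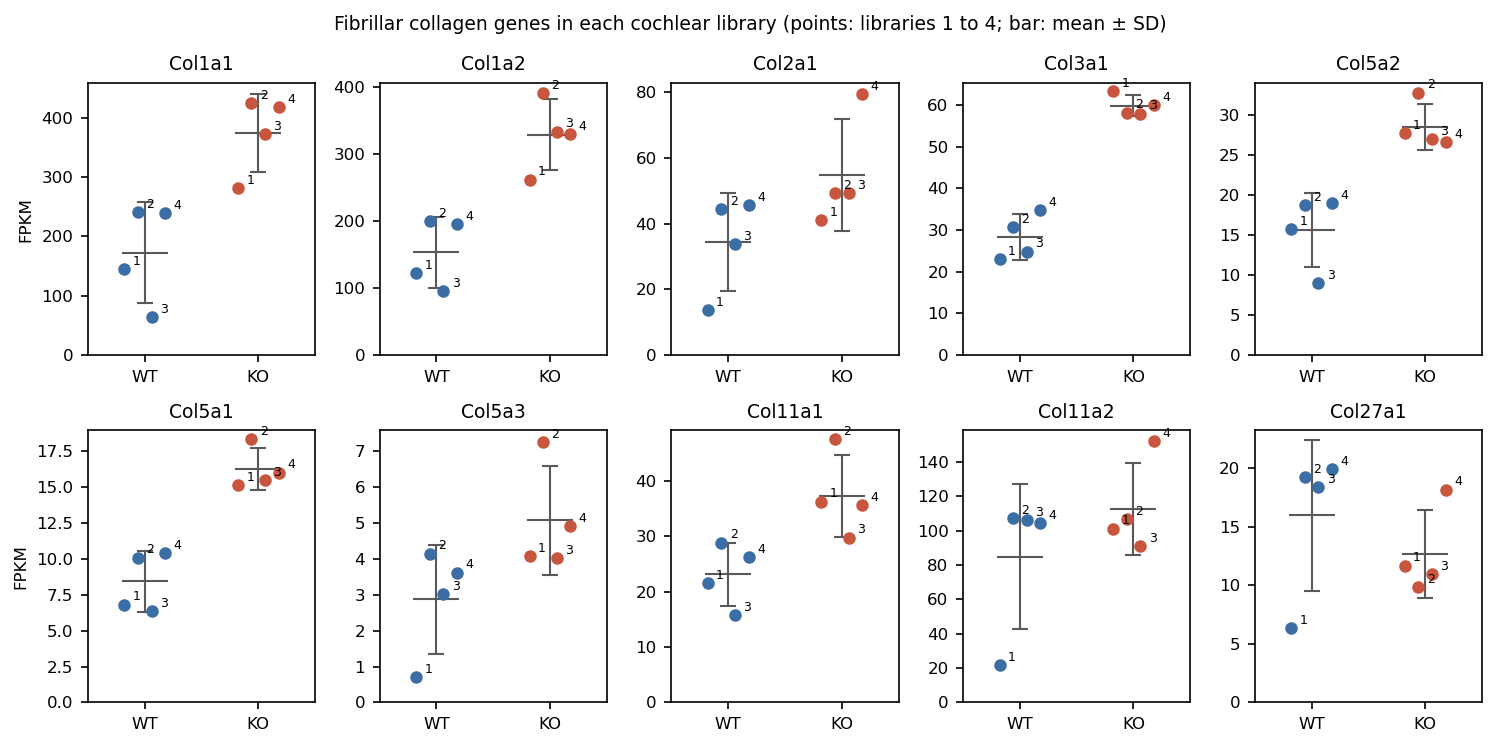
FPKM of each fibrillar collagen gene in the 8 libraries, on linear axes from 0 that differ between genes; points are libraries, numbered by replicate, and bars give the group mean ± SD (n = 4). In Col1a1, Col1a2, Col3a1, Col5a1, Col5a2 and Col11a1 the 4 KO libraries lie above the 4 WT libraries, and in Col2a1, Col5a3, Col11a2 and Col27a1 the groups overlap.

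**Figure D3:**
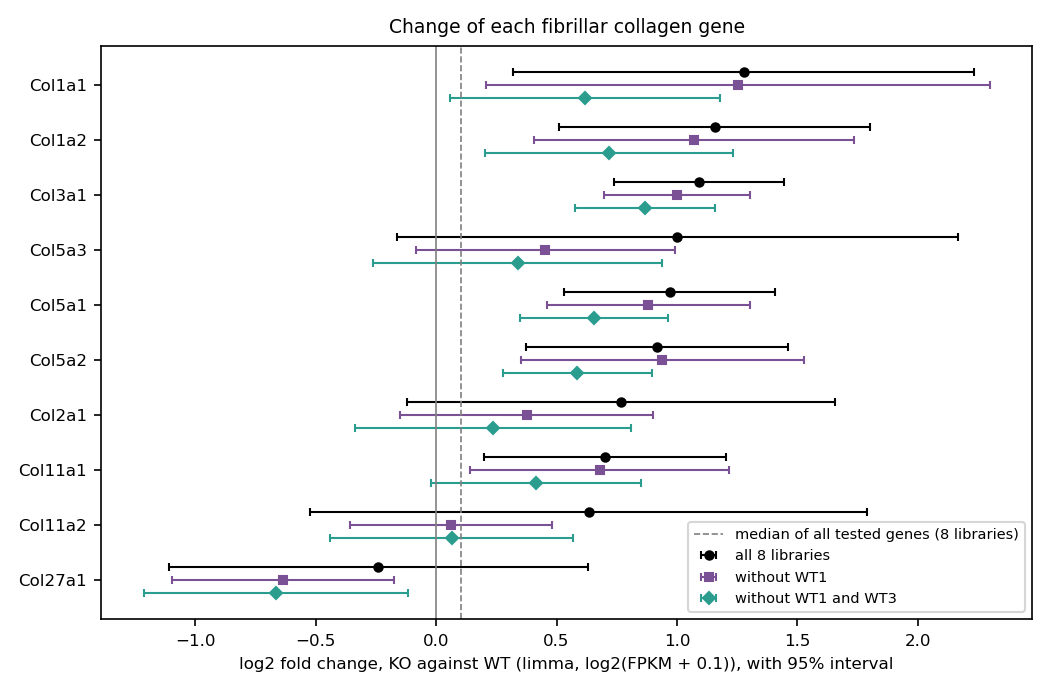
Log2 fold change (KO minus WT, log2(FPKM + 0.1)) of each gene with its 95% confidence interval from limma (the dashed line marks the median of all tested genes), with all 8 libraries, without WT1, and without WT1 and WT3. The interval of Col27a1 lies below 0 once WT1 is left out, and Col1a1 moves from 1.28 to 0.62 when both are left out.

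Both chains of type I collagen were higher in KO. Col1a1, the gene of the α1 chain (chromosome 11, 94936224 to 94953042), measured 145, 241, 64.1 and 239 FPKM in WT1 to WT4 and 282, 424, 372 and 418 FPKM in KO1 to KO4. The lowest KO library was above the highest WT library, and WT3 was the lowest of all. The means were 172 ± 85.0 and 374 ± 65.8 FPKM (SD, n = 4 each), a log2 fold change of 1.28 (SE 0.42, 95% confidence interval 0.32 to 2.24; limma, unadjusted p = 0.0148, adjusted p = 0.947). Without WT1 and WT3 the log2 fold change was 0.62 (limma, unadjusted p = 0.0346), so much of the size of the Col1a1 difference came with these 2 libraries.

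Col1a2, the gene of the α2 chain (chromosome 6, 4504814 to 4541544), measured 122, 200, 95.2 and 196 FPKM in WT1 to WT4 and 262, 391, 333 and 330 FPKM in KO1 to KO4. WT3 was again the lowest library, and the groups did not overlap. The log2 fold change was 1.16 (SE 0.28, 95% confidence interval 0.51 to 1.80; limma, unadjusted p = 0.00299, adjusted p = 0.922) and was 0.72 without WT1 and WT3. The difference between the fold changes of the 2 chains was not tested.

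Type III collagen gave the smallest p of the set. Col3a1 (chromosome 1, 45311538 to 45349706) measured 23.0, 30.8, 24.8 and 34.8 FPKM in WT1 to WT4 and 63.2, 58.2, 57.9 and 60.0 FPKM in KO1 to KO4. The KO libraries lay close together and well above all WT libraries, with means of 28.4 ± 5.44 and 59.8 ± 2.45 FPKM (SD, n = 4 each). The log2 fold change was 1.09 (SE 0.16, 95% confidence interval 0.74 to 1.45; limma, unadjusted p = 7.44e-05, adjusted p = 0.558), the second smallest p of all tested genes. It stayed between 0.87 and 1.20 over the 19 alternative settings, with unadjusted p from limma between 1.14e-05 and 0.000514. An annotated microRNA gene, Gm47302, overlaps exons of Col3a1 on the same strand, and 0.927% of its 50-base words occur in another gene.

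Of the type V chains, Col5a1 and Col5a2 were higher in KO. Col5a1 (chromosome 2, 27886425 to 28039514), with the most seed matches, measured 6.82, 10.1, 6.39 and 10.4 FPKM in WT1 to WT4 and 15.2, 18.4, 15.5 and 16.0 FPKM in KO1 to KO4. The groups were separate, and the log2 fold change was 0.97 (SE 0.19, 95% confidence interval 0.53 to 1.41; limma, unadjusted p = 0.000787, adjusted p = 0.922). It was 0.88 without WT1 and 0.66 without WT1 and WT3, and was called in both. The exons of 2 antisense transcripts overlap Col5a1, and whether the authors' counting used the strand is not given in the sources used here.

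Col5a2 (chromosome 1, 45374321 to 45503282), which lies 24614 bases from Col3a1 on the opposite strand, measured 15.8, 18.8, 9.01 and 19.0 FPKM in WT1 to WT4 and 27.7, 32.8, 27.0 and 26.6 FPKM in KO1 to KO4. WT3 was the lowest library and the groups did not overlap. The log2 fold change was 0.92 (SE 0.24, 95% confidence interval 0.37 to 1.46; limma, unadjusted p = 0.00434, adjusted p = 0.947) and was 0.59 without WT1 and WT3.

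Col5a3 (chromosome 9, 20770050 to 20815067), the remaining type V chain and the least abundant gene of the set, was not called. It measured 0.702, 4.15, 3.03 and 3.62 FPKM in WT1 to WT4 and 4.08, 7.26, 4.03 and 4.92 FPKM in KO1 to KO4. The WT2 value lay above the 2 lowest KO values, and WT1 was far below the rest. It differed by 1.002 on the log2 scale (SE 0.51, 95% confidence interval -0.16 to 2.17; limma, unadjusted p = 0.0829, adjusted p = 0.947) and was 0.45 without WT1. The width of the interval leaves a change of the size seen in Col5a1 possible.

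In the cartilage-type fibrils the chains differed from one another in their calls. Col11a1, the α1 chain of type XI (chromosome 3, 114030540 to 114220718), measured 21.5, 28.8, 15.8 and 26.3 FPKM in WT1 to WT4 and 36.2, 47.5, 29.7 and 35.5 FPKM in KO1 to KO4. The groups were separate by a small margin, WT2 at 28.8 against KO3 at 29.7. The log2 fold change was 0.70 (SE 0.22, 95% confidence interval 0.20 to 1.20; limma, unadjusted p = 0.0118, adjusted p = 0.947). Without WT1 and WT3 it was 0.41 and was no longer called (limma, unadjusted p = 0.0602).

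Col2a1, the only chain of type II (chromosome 15, 97975602 to 98004695), measured 13.7, 44.5, 33.7 and 45.7 FPKM in WT1 to WT4 and 41.1, 49.4, 49.4 and 79.6 FPKM in KO1 to KO4. WT2 and WT4 exceeded KO1, and WT1 was the lowest library. The difference on the log2 scale was 0.77 (SE 0.39, 95% confidence interval -0.12 to 1.66; limma, unadjusted p = 0.0825, adjusted p = 0.947) and fell to 0.38 without WT1.

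Col11a2, the α2 chain of type XI (chromosome 17, 34039437 to 34066685), measured 21.6, 107, 106 and 105 FPKM in WT1 to WT4 and 101, 107, 91.2 and 152 FPKM in KO1 to KO4. Apart from WT1, the WT values lay within the range of the KO values. KO exceeded WT by 0.63 on the log2 scale (SE 0.51, 95% confidence interval -0.52 to 1.79; limma, unadjusted p = 0.245, adjusted p = 0.950), or by 0.06 without WT1. Nearly all of its mean difference was therefore carried by that library.

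Col27a1 (chromosome 4, 63214004 to 63334991) was the only gene of the set with a lower mean in KO. It measured 6.33, 19.3, 18.4 and 19.9 FPKM in WT1 to WT4 and 11.7, 9.85, 10.9 and 18.2 FPKM in KO1 to KO4. WT2, WT3 and WT4 each exceeded every KO library, and WT1 lay below them all. With all libraries the log2 fold change was -0.24 (SE 0.38, 95% confidence interval -1.11 to 0.63; limma, unadjusted p = 0.546, adjusted p = 0.982). Without WT1 it was -0.64 (SE 0.20, 95% confidence interval -1.10 to -0.17; limma, unadjusted p = 0.0130, adjusted p = 0.164), and 7.4% of genes were called lower in that setting.

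Leaving out WT1 raised the calls over all genes to 12.1% higher and 7.4% lower, and the fibrillar collagens to 6 called higher and 1, Col27a1, called lower, with a median log2 fold change of 0.78 beside -0.02 for all tested genes. Leaving out WT1 and WT3 gave 9.17% higher and 6.97% lower over all genes, and 5 collagens higher (Col1a1, Col1a2, Col3a1, Col5a1 and Col5a2) and Col27a1 lower, with a median of 0.50 beside -0.03. Rescaling the libraries changed the balance over all genes: 90.1% of calls were higher in KO with the deposited FPKM, 52.5% after median-ratio scaling (2.68% of genes called higher) and 40.9% after quantile normalization (2.52% called higher). The same 6 collagens were called higher under both, with medians of 0.84 and 0.81 against all-gene medians of 0.00 and -0.04.

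The libraries fell into different orders for different chains. WT3 was the lowest library for Col1a1, Col1a2, Col5a1, Col5a2 and Col11a1, and WT1 was the lowest for Col2a1, Col3a1, Col5a3, Col11a2 and Col27a1. Likeness was measured over the 8 libraries as the root mean square difference of log2(FPKM + 0.1), each gene centred on its own mean. By this measure Col3a1 and Col5a1 were the closest pair at 0.15, followed by Col1a2 and Col5a1 at 0.17 and by Col11a1 and Col5a2 at 0.18. Col1a1 was nearest to Col1a2 at 0.27 and Col2a1 to Col11a2 at 0.29. Col27a1 was the farthest from any other chain, its nearest being Col11a2 at 0.50. As a description, the type XI chain Col11a1 was thus closer to the type I and V group and the type XI chain Col11a2 to type II.

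**Figure D4:**
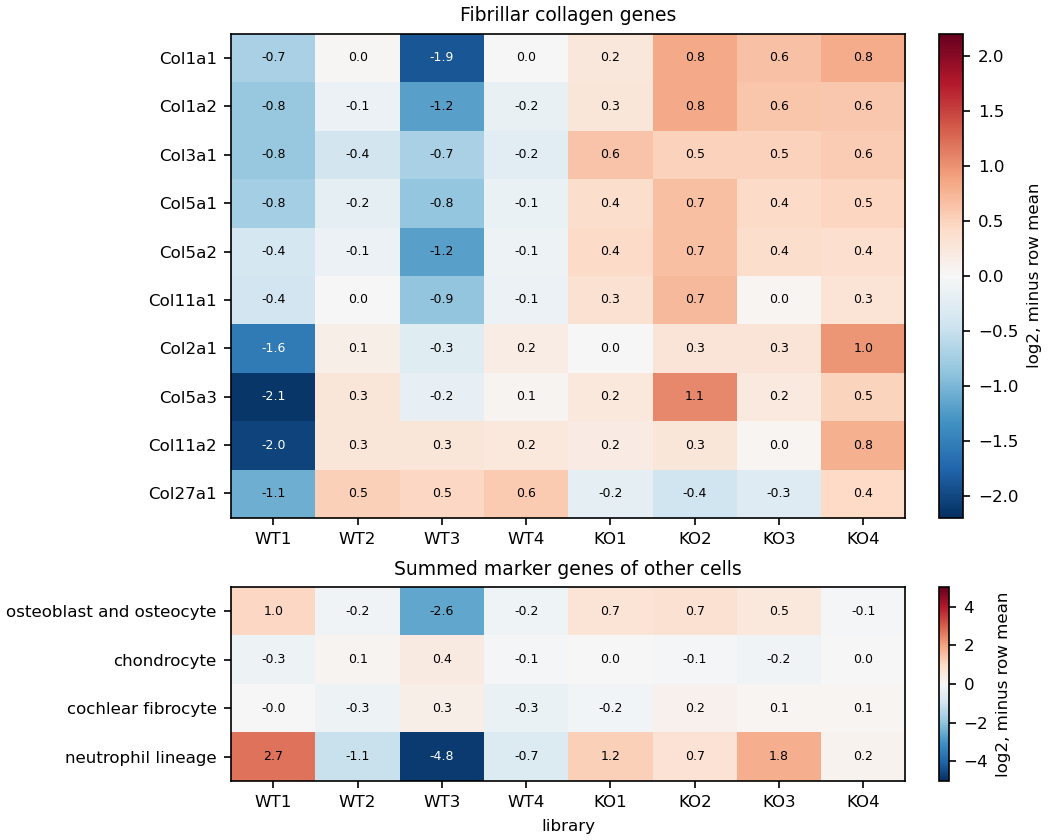
Log2(FPKM + 0.1) of the fibrillar collagen genes and log2 of the summed FPKM of 4 marker lists (osteoblast and osteocyte, chondrocyte, cochlear fibrocyte, neutrophil), each as the difference from its mean over the 8 libraries. WT3 is lowest for the type I and V chains apart from Col5a3 and for Col11a1, WT1 is lowest for Col2a1, Col11a2 and Col27a1, and WT3 also has the lowest osteoblast sum.

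Ordered by median level, the WT cochlea held most Col1a1 (192 FPKM), then Col1a2 (159), Col11a2 (105), Col2a1 (39.1), Col3a1 (27.8), Col11a1 (23.9), Col27a1 (18.8), Col5a2 (17.3), Col5a1 (8.46) and Col5a3 (3.32). Every pair of neighbours in this order overlapped in range except Col5a1 and Col5a3. In KO, Col3a1 (59.1) stood above Col2a1 (49.4) and Col5a1 (15.8) above Col27a1 (11.3), although each of these pairs overlapped. The ranges of Col1a1 and Col1a2 lay above that of Col11a2 in KO (lowest type I value 262, highest Col11a2 value 152), whereas in WT they overlapped.

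The summed FPKM of the 10 genes was 376, 704, 377 and 699.5 in WT1 to WT4 and 844, 1145, 991 and 1140.3 in KO1 to KO4, so every KO library held more fibrillar collagen transcript than every WT library. This was 0.149 to 0.281% of total FPKM in WT and 0.331 to 0.458% in KO. Type I made up 70.9, 62.6, 42.3 and 62.2% of the sum in WT1 to WT4 and 64.4 to 71.2% in KO. Without type I the sum was still separate, 110 to 264 FPKM in WT and 286 to 393 FPKM in KO.

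Ratios between chains within a library cancel any scaling of that library, and they are given as a description. The ratio of Col1a1 to Col1a2 was 1.18 to 1.22 in WT1, WT2 and WT4, 0.673 in WT3, and 1.07 to 1.27 in KO. The ratio of Col5a1 to Col5a2 was 0.432 to 0.709 in WT and 0.547 to 0.602 in KO. Both pairs overlapped between genotypes. For Col1a1 to Col1a2 the wider WT range came from WT3 alone, the other WT libraries lying within the KO range. For Col5a1 to Col5a2 it came from WT1 (0.432) and WT3 (0.709), with WT2 and WT4 at 0.538 and 0.547. The ratio of Col3a1 to Col1a1 was 0.128 to 0.387 in WT and 0.137 to 0.225 in KO. The ratio of Col2a1 to Col1a1 was 0.0949 to 0.526 in WT and 0.116 to 0.190 in KO. The ratio of Col11a2 to Col11a1 ran from 1.005 in WT1 to 6.72 in WT3, enclosing the KO range of 2.25 to 4.27. All 7 ratios examined overlapped between the groups.

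**Figure D5:**
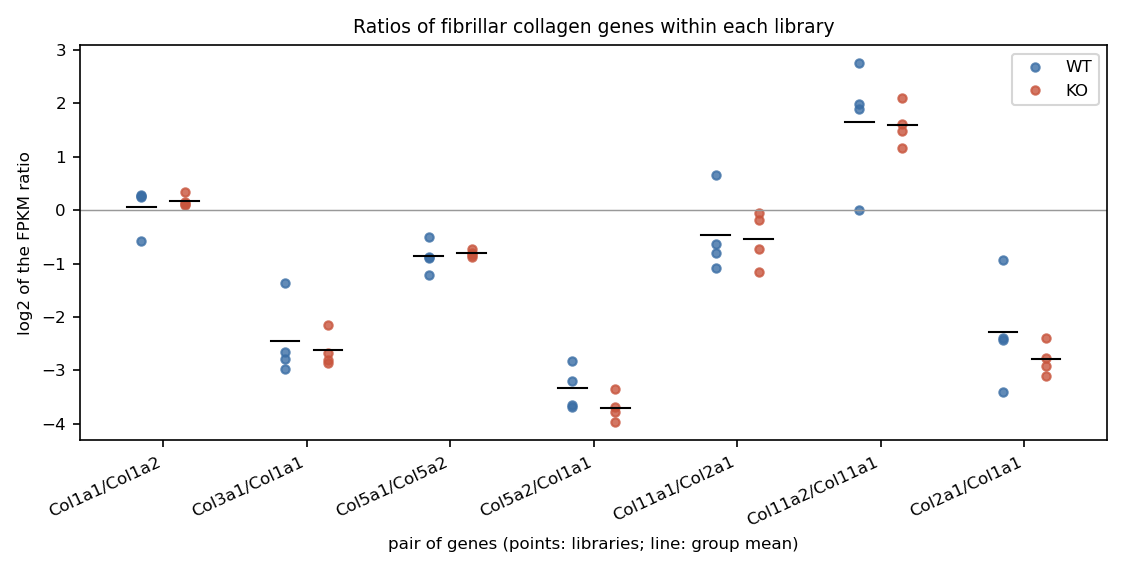
Log2 ratio of the FPKM of 2 fibrillar collagen genes within each library, for 7 pairs; points are libraries and lines are group means. WT and KO overlap in all 7, and WT3 stands apart in the ratio of Col1a1 to Col1a2 at 0.673.

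Genes that make, modify, bind or degrade collagen fibrils were described from lists that hold 81 genes, of which 78 were tested. Of these, 9 were called higher in KO (11.5%, against 4.61% of all tested genes), 0 were called lower and none passed the adjustment, with a median log2 fold change of 0.22 beside 0.10 for all genes. Without WT1, 18 were called higher and 7 lower, where 12.1% of all tested genes were called higher and 7.4% lower, so the lower calls lay near the background. Col24a1, the remaining fibrillar collagen gene of this list, measured 2.88 to 4.996 FPKM in WT and 3.51 to 6.05 FPKM in KO, a log2 fold change of 0.26 that was not called (limma, unadjusted p = 0.322) and was -0.037 without WT1 and WT3.

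Among 30 enzymes and chaperones of procollagen processing and crosslinking, 4 were called higher, with a list median of 0.22. Lox, the lysyl oxidase that starts crosslinking between collagen molecules, measured 11.8, 9.24, 6.38 and 8.60 FPKM in WT1 to WT4 and 19.0, 25.4, 19.3 and 12.9 FPKM in KO1 to KO4. The groups were separate, and the log2 fold change was 1.07 (limma, unadjusted p = 0.00209), or 1.05 without WT1 and WT3. Its relative Loxl2 was higher by 0.92 (limma, unadjusted p = 0.0236), and P3h1, a prolyl 3-hydroxylase, by 0.35 (limma, unadjusted p = 0.0357). Without WT1 and WT3, Loxl2 differed by 0.49 and was still called (limma, unadjusted p = 0.0334), while P3h1 differed by 0.31 and was not (limma, unadjusted p = 0.0654). Adamts2, which removes the amino-terminal propeptide of procollagen, was the other called gene and is named after its value was seen.

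Of 23 tested fibril-associated proteins, 2 were called higher, with a list median of 0.17. Sparc, a collagen-binding protein of bone and connective tissue, measured 335, 310, 335 and 313 FPKM in WT1 to WT4 and 782, 936, 779 and 764 FPKM in KO1 to KO4. WT1 and WT3 were not low here, and the lowest KO value, 764, lay far above the highest WT value, 335. KO exceeded WT by 1.33 on the log2 scale (SE 0.22; limma, unadjusted p = 0.000217, adjusted p = 0.870), and by 1.38 without WT1 and WT3. Comp, a cartilage and tendon matrix protein, differed by 1.35 (limma, unadjusted p = 0.0206) but overlapped between the groups; WT3 was its lowest library, and without WT1 and WT3 it differed by 0.49 and was not called (limma, unadjusted p = 0.0715). Col22a1 differed by 0.86 and was not called (limma, unadjusted p = 0.0561), a difference that was 0.22 without WT1 and WT3.

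Of 14 receptors and enzymes of fibril turnover, 3 were called higher, with a list median of 0.33. Mmp2, a gelatinase, measured 14.3 to 22.9 FPKM in WT and 29.5 to 32.1 FPKM in KO, a log2 fold change of 0.68 with separate groups (limma, unadjusted p = 0.00246). Mmp14, a membrane-bound collagenase, was higher by 0.30 (limma, unadjusted p = 0.0432) and was not called without WT1 (0.26; limma, unadjusted p = 0.0541). Ctsk, the collagen-degrading protease of osteoclasts, was higher by 1.72 (limma, unadjusted p = 0.0186), with WT1 at 73.2 FPKM inside the KO range of 55.8 to 123 FPKM and the other WT libraries at 8.19 to 27.2 FPKM. Without WT1 Ctsk differed by 2.26 (limma, unadjusted p = 0.000581), and without WT1 and WT3 by 1.78.

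None of 10 transcription factors of collagen genes was called by limma, at an unadjusted p under 0.05 or after adjustment, and their median log2 fold change was 0.20. The 3 with the smallest p were Sox6, a factor of the Col2a1 programme (0.49; limma, unadjusted p = 0.0945), Sp7, an osteoblast factor (0.53; limma, unadjusted p = 0.212), and Foxc1 (0.21; limma, unadjusted p = 0.432). Without WT1, Sox6 was called higher (0.65; limma, unadjusted p = 0.0269) and Foxc1 stood at -0.070. Without WT1 and WT3, Sp7 stood at 0.06.

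The seed match was present in 21 of the 78 tested genes of these lists (26.9%), of which 6 were called higher, with a median log2 fold change of 0.26. Of the 57 without it 3 were called higher, with a median of 0.20. Over all tested genes 15.5% held the match; 6.71% of those 2294 genes were called higher, with a median of 0.11, as were 4.16% of the 12538 genes without it, with a median of 0.10. No test of the seed match was made. Adamts2 held 4 matches, Lox 3 and Loxl2 2, and P3h1, Mmp2 and Ctsk each held 1. Sparc, Comp and Mmp14 held no TGGTGCT in the window searched, and no other form of site was searched.

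Among all other genes with a mean of at least 1 FPKM, those nearest in pattern over the 8 libraries were as follows. Closest to Col3a1 were Fbn1, the fibrillin of microfibrils (root mean square difference 0.21), C1qtnf6 (0.21) and Col6a1, a chain of collagen VI (0.22). Closest to Col1a1 were Kifc5b (0.21), Clec11a (0.26) and Col22a1 (0.26). Closest to Col2a1 were Dmpk (0.20), Fbxl18 (0.20) and Hhat (0.21), and closest to Col11a2 were Cracr2b (0.18), Iglon5 (0.19) and Gjd2 (0.19), the last a neuronal connexin. These genes were picked for likeness, and the points share the same 8 libraries.

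Levels of cell type markers varied between libraries and are given beside the collagen values. The sum of 10 osteoblast and osteocyte genes was 652, 283, 52.5 and 273 FPKM in WT1 to WT4 and 513, 529, 461 and 301 FPKM in KO1 to KO4, and 1 of the 10 was called higher, against 4.61% of all tested genes. The median log2 fold change of these 10 marker genes was 0.82, beside 0.94 for the fibrillar collagens and 0.10 for all tested genes. Without WT1 this median was 1.33, with 5 of the 10 called higher, where 12.1% of all tested genes were. Without WT1 and WT3 it was 0.54, with 4 called higher, where 9.17% of all tested genes were. The sum of 7 chondrocyte genes was 62.4 to 102 FPKM in WT and 66.3 to 76.9 FPKM in KO, and that of 6 fibroblast genes 262 to 348 and 286 to 353 FPKM. With all 8 libraries none of these was called. Of the 6 fibroblast genes, 1 was called higher without WT1 (against 12.1%) and 2 without WT1 and WT3 (against 9.17%). Of 4 chondrocyte genes tested, 1 was called lower without WT1 (against 7.4%). Without WT1 and WT3, 1 of the 4 was called higher (against 9.17%).

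The sum of 5 cochlear fibrocyte genes, led by Coch, was 1328 to 2065 FPKM in WT and 1496 to 1951 FPKM in KO, and that of 7 hair cell and strial genes 29.7 to 67.1 FPKM and 29.0 to 46.9 FPKM, all 7 being detected in this cochlear tissue. Blood and marrow genes were abundant and uneven: neutrophil genes summed to 51.3 to 9387 FPKM in WT and 1635 to 4997 FPKM in KO, and erythroid genes to 449 to 7381 and 4862 to 11959 FPKM. Skeletal muscle genes reached 273 FPKM in KO3 and lay between 0.485 and 6.24 FPKM in WT. B lineage genes summed to 33.5 to 54.3 FPKM in WT and 52.0 to 85.7 FPKM in KO, and adipocyte genes to 1.87 to 16.0 and 3.99 to 27.9 FPKM. The most abundant B lineage gene, Ebf1, measured 22.9 to 35.2 FPKM in WT and 29.6 to 37.8 FPKM in KO. Without WT1, 7 of 7 neutrophil, 6 of 6 erythroid and 3 of 4 B lineage genes were called higher, against 12.1% of all tested genes. In that setting 3 of 5 cochlear fibrocyte genes (median -0.32) and 2 of 7 hair cell and strial genes (median -0.40) were called lower, against 7.4%. Without WT1 and WT3, 7 of 7, 5 of 6 and 3 of 4 were called higher, against 9.17%. The lower calls were then 1 of 5 fibrocyte and 2 of 7 hair cell and strial genes, against 6.97%. All 10 marker sums overlapped between the groups over the 8 libraries, but for some the overlap rested on WT1. In the other WT libraries the osteoblast sum reached 283 FPKM, against at least 301 FPKM in KO. The neutrophil sum reached 889 against 1635, the erythroid sum 3567 against 4862, and the B lineage sum 43.6 against 52.0 FPKM. The hair cell and strial sum went the other way, at least 47.5 FPKM in those WT libraries and at most 46.9 FPKM in KO. The part of the marker genes in the collagen differences was not tested.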

How the data were processed

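The authors removed ribosomal RNA from total cochlear RNA, built strand-specific libraries and mapped the reads with Hisat2. The deposited FPKM values, 1 column per library, were used as they stand, with 0 per-sample columns left unused. The program that made the FPKM and its annotation are not given in the sources used here. The submitters' processing notes name mm9, but all 10 members, and 19771 of the 21760 gene identifiers found in GENCODE M21, had the coordinates of GRCm38 in the deposited table, and that build was used for sequences.

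Groups came from the sample titles. FPKM were analysed as log2(FPKM + 0.1), a scale that understates the change of low genes. Genes with a mean of at least 0.5 FPKM were fitted with limma 3.58.1 (R 4.3.3), with genotype as the only term and a mean-variance trend. Tests were two-sided. A call was an unadjusted p under 0.05 at any fold, as in the study, and p-values were also adjusted by Benjamini-Hochberg over all tested genes. The script was tested on simulated data. Tables, sequences and plots were made in Python 3.11.15 with numpy 2.4.6, pandas 2.3.3 and matplotlib 3.10.9. The 3′-UTR was taken as the sequence after the annotated stop codon, in the longest such stretch among a gene's protein-coding transcripts.

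All 10 members were named. In each partner list the 3 genes with the smallest p were named, and Col24a1 always. For Col1a1, Col2a1, Col3a1 and Col11a2 the 3 nearest other genes in pattern were named. The members and lists were chosen with earlier results of these data known. Alternatives were another pseudocount, other filters, 2 other scalings, no trend, sample quality weights, the replicate number as a block, replicate numbers 1 to 3 only, and each library left out in turn. Leaving out WT1 and WT3 together, and both settings for single partner genes and marker lists, were added after seeing the data. No protein sequences were used here. A sequencing depth per library is not given in the files, so no counting interval was computed.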

Additional observations from a re-analysis of the deposited data

Results flagged for a closer look

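In each group of 4 libraries, the gap between the most extreme library and its nearest neighbour was divided by the range of the group and compared with Dixon's 95% critical value for 4 samples. Over 34 such groups, the members and the ratios between them, 3 exceeded it, and chance flags about 1 in 20 groups. In WT, the level of Col11a2 on the log2 scale gave 0.985, because WT1 measured 21.6 FPKM and the other WT libraries 105 to 107 FPKM. In WT, Col27a1 gave 0.930, with WT1 at 6.33 FPKM and the others at 18.4 to 19.9 FPKM. In WT, the log2 ratio of Col1a1 to Col1a2 gave 0.949, with WT3 at a ratio of 0.673 and the others at 1.18 to 1.22. No group of KO libraries exceeded the critical value.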

How the results depend on the processing

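The count of fibrillar collagen genes called stayed within 1.5 times its main value of 6 under all 19 alternatives, and no member reversed direction. The count over all genes, 767, became 4133 with sample quality weights (446 after adjustment, WT1 having the lowest weight, 0.108), 3252 with median-ratio scaling and WT1 left out, and 2430 with WT1 and WT3 left out. It ranged from 347, without KO3, to 2922, without WT1, when single libraries were left out, and was 377 without KO2. The count of partner genes, 9 of 78, became 32 (23 higher and 9 lower), 25 (18 and 7) and 23 (15 and 8) under the first 3 of these settings. In the same settings all tested genes gave 2504 higher and 1629 lower of 14990, 1946 and 1306 of 15019, and 1381 and 1049 of 15055. The partner count ranged from 5 to 25 with single libraries left out, 5 without KO2 or KO3 and 25 without WT1. With quality weights Col3a1, Col5a1 and Col1a2 had adjusted p from limma of 0.0403, 0.0483 and 0.0490.

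The deviations of samples with the same replicate number had correlations of 0.42, -0.24, -0.17 and 0.21, which share no sign. They were not compared with other pairings, and the meaning of the numbers is not given in the sources used here. Whether the numbers pair the samples therefore cannot be settled. A block for replicate number gave 838 genes and 8 members called, Col2a1 (limma, unadjusted p = 0.0221) and Col5a3 (limma, unadjusted p = 0.0408) being added. Col5a3 was also called without WT2 (1.26; limma, unadjusted p = 0.0489). Col27a1 was called lower in 4 settings, those that left out or down-weighted WT1.

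The upper ends of the intervals of Col2a1, Col5a3 and Col11a2 rest on WT1. With it they reach 1.66, 2.17 and 1.79 on the log2 scale. Without it the intervals were -0.15 to 0.90, -0.08 to 0.99 and -0.36 to 0.48. Foxc1 changed sign without WT1 (-0.070) and without WT1 and WT3 (-0.029), and Col24a1 without both (-0.037); none was called.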
